A study of Rattus norvegicus with 4 samples.

Results

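Bins of 10 kb that held few or no contacts with the rest of their own chromosome were described across the 20 numbered chromosomes of the rat genome, build rn6. A bin was called low when its cis contacts outside the bin, summed over the 4 raw Hi-C matrices, were below 0.25 of the median bin. The median bin had 1961 such contacts, which put the threshold at 490.25. In all, 29263 of 261882 bins were low (11.2%), and together they covered 293 of 2619 Mb. Of the low bins, 10712 had 0 cis contacts outside the bin in all 4 libraries and 18551 had at least 1. The low bins were thus chosen by their cis contacts outside the bin, so their levels are given as a description and were not tested against those of other bins.

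Hi-C joins DNA ends that lie close together in the nucleus, and each sequenced pair counts as 1 contact. Both ends of a pair have to be placed in the reference genome before they count, so the contacts of a bin depend on how the DNA is folded and on how much of the bin can be read. Chromosomes occupy territories of their own, so most contacts are cis, within a chromosome, and contacts between chromosomes, called trans, are spread thinly except where chromosomes meet, as at nucleoli and at clusters of centromeric heterochromatin. Matrix balancing is sensitive to bins with few contacts, and such bins are usually left out. Which sequences the low bins hold was not analysed here, because no rn6 sequence or gene annotation was used, and no genes are named for the same reason.

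The cells were primary Schwann cells, the glia that wrap the axons of peripheral nerves, taken from rat sciatic nerve. All had been exposed to a lentivirus at 2 viral units a cell over 48 hours, either a control virus that brought in GFP (Lenti-GFP) or a virus that overexpresses the antisense RNA of the promoter of Egr2, a transcription factor that drives myelination (Lenti-AS). There were 2 libraries of each, made with the Arima kit, and the study asked whether the antisense RNA reorganizes the genome. No library was made from uninfected cells here, so both groups carry a virus, and the labelled cell type cannot be checked against expressed markers in contact data. The labels do not say whether the libraries came from separate cultures or animals, so p-values measure the spread between these libraries only. The libraries held between 70488877 and 110770015 contacts, and both Lenti-AS libraries held fewer than either Lenti-GFP library, so counts are also given per 1000000 contacts where this matters.

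The levels of low bins ran down to 0 without a gap at the threshold. The low bins above 0 had a median of 70 cis contacts outside the bin over the 4 libraries, against 2054 in the remaining bins. There were 406 bins between 0.24 and 0.25 of the median and 373 between 0.25 and 0.26. Just inside the threshold were the bins starting at 79060001, 115260001 and 215920001 on chromosome 1, each with 490 contacts. Just outside it were those starting at 39510001 on chromosome 1 and at 17420001 and 21320001 on chromosome 3, each with 491. Among the bins at 0, 8337 (77.8%) had no contact of any kind in any library, 2375 had trans contacts and 18 had contacts within the bin. A count of 0 allows up to 3 contacts, which is 0.153% of the median bin. The most trans contacts of a bin at 0 were 387.

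Each library alone found nearly the same low bins when it was set against its own median. The libraries had 29546 and 29133 low bins in Lenti-GFP and 29156 and 29185 in Lenti-AS. Of the 30421 bins that were low in at least 1 library, 28163 (92.6%) were low in all 4. There were 228 bins that were low in both Lenti-GFP libraries and in neither Lenti-AS library, and 163 the other way round. For bins at 0, 273 were at 0 in both Lenti-GFP libraries and above 0 in both Lenti-AS libraries, and 239 the other way round. In these bins the higher group never had more than 19 contacts, so all of them lay close to 0 in every library. For comparison, 216 bins were at 0 in both libraries numbered 1 and above 0 in both numbered 2.

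Low bins were unevenly spread over the chromosomes. Chromosome 12 had the highest share, with 18.4% of its bins, followed by chromosome 1 with 16.4%, and chromosome 10 had the lowest, with 7.35%. The share of bins at 0 ran from 2.73% on chromosomes 5 and 10 to 6.03% on chromosome 12. In the first 3 Mb of the chromosomes 23.9% of the bins were low, against 11.4% in the last 3 Mb and 10.9% elsewhere. With each chromosome cut into 10 equal parts, the share was highest in part 1, with 16.5%, and lowest in part 8, with 8.61%. Chromosome 13 began with 85 low bins in a row and chromosome 14 with 51, and chromosome 18 ended with 55. On the other chromosomes the unbroken series at either end was at most 14 bins. The plot by chromosome shows both the shares and the longest run.

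**Figure D1:**
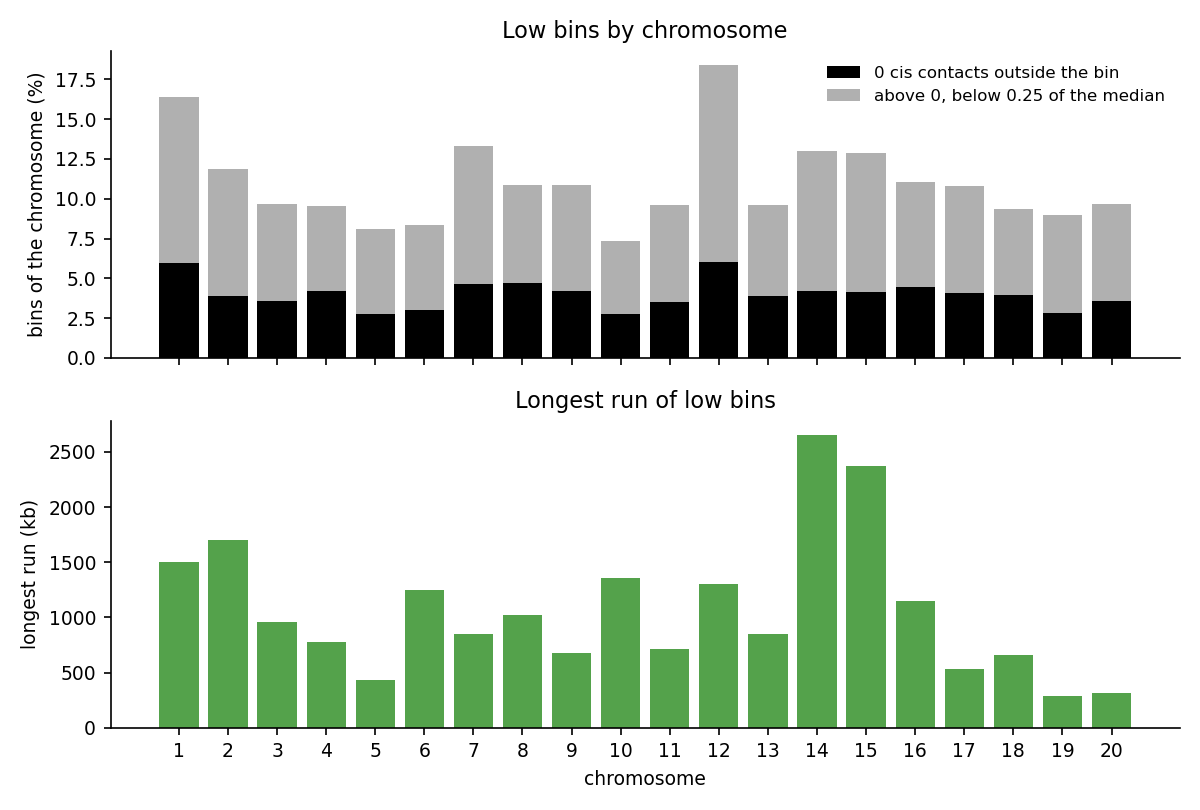
Low bins on each numbered chromosome. The upper bars give the percent of bins with 0 cis contacts outside the bin (black) and of those above 0 but below 0.25 of the median (grey), and the lower bars the longest run of neighbouring low bins in kb. Chromosome 12 had the highest share, at 18.4%, and chromosome 14 the longest run, at 2650 kb.

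Neighbouring low bins formed 7284 runs, most of them short. The median run was 1 bin, and 3968 runs were single bins. The 664 runs of at least 10 bins, called long runs here, held 15366 low bins (52.5%). The longest run of a chromosome ranged from 29 bins on chromosome 19 to 265 bins on chromosome 14. The 5 longest lay on chromosome 14 from 94650001 to 97300000 (265 bins), on chromosome 15 from 21030001 to 23400000 (237 bins), on chromosome 2 from 161700001 to 163400000 (170 bins), on chromosome 1 from 182120001 to 183620000 (150 bins) and on chromosome 10 from 111130001 to 112490000 (136 bins). None of these was empty. Among these 5, bins at 0 made up from 12.7% of the run on chromosome 1 to 39.0% of the run on chromosome 10. Over the 52 runs of at least 50 bins the share of bins at 0 went from 5.56% to 80.8%.

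Pooled over the low bins above 0, contacts with other chromosomes made up more than those within the chromosome. The trans share, trans contacts over all contacts of the low bins above 0, was 56.1% and 56.86% in Lenti-GFP, against 57.3% and 56.93% in Lenti-AS. In the remaining bins it was 13.3%, 13.4%, 13.7% and 13.7%. The 95% Wilson interval of the first Lenti-GFP library was 56.07% to 56.2%, and such intervals cover counting error only. Part of this gap follows from the rule, because the cis contacts that the rule kept low stand in the denominator. The trans contacts themselves were not used by the rule. Their median was 332 in the remaining bins, and 2761 low bins (9.44%) were above that value. There were 1083 low bins above 847, the 99th percentile of the remaining bins.

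Single low bins varied widely in their trans share. Their median was 33.9% over the 15066 low bins above 0 with at least 20 contacts, well below the pooled share. Of these bins, 31.8% had a trans share below 20%, close to the 12.7% median of the remaining bins. Another 27.0% had a trans share of at least 80%, which only 0.0284% of the remaining bins reached. The other 6204 bins (41.2%) lay between these values. The histogram of trans share has its low stretch from 35% to 70%, where each 5-point step held 1.52% to 2.65% of the bins. Within the range of the rule the trans share was lower where cis contacts were more, an order that the cis contacts in its denominator help to set. It was 87.5% pooled over bins above 0 and up to 0.01 of the median, and 42.0% over bins from 0.2 to 0.25. The trans contacts themselves went the other way, with a median of 8 per bin in the former class and 109 in the latter.

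The trans share also differed with the length of the run. Pooled over all bins of a class, the trans share was 30.4% for single low bins, 45.8% for runs of 2 to 4 bins, 57.3% for 5 to 9, 69.5% for 10 to 49 and 80.8% for 50 or more. The median run of each class was lower, at 17.4%, 23.1%, 29.7%, 38.2% and 78.9%, so in all but the longest class the pooled share was carried by runs with many contacts. Cis contacts outside the bin fell along the same order, from 233 to 38.2 per bin. Trans contacts per bin were 105, 111, 101.1, 119 and 196, against 356 in the remaining bins. On average over these classes, bins of runs of at least 50 bins thus had the fewest cis and the most trans contacts. Of the 52 runs of at least 50 bins, 46 had a trans share of at least 50% and 22 of at least 80%. They differed widely in their trans contacts, from 3.17 to 751 per bin, with 10 runs below 20.

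**Figure D2:**
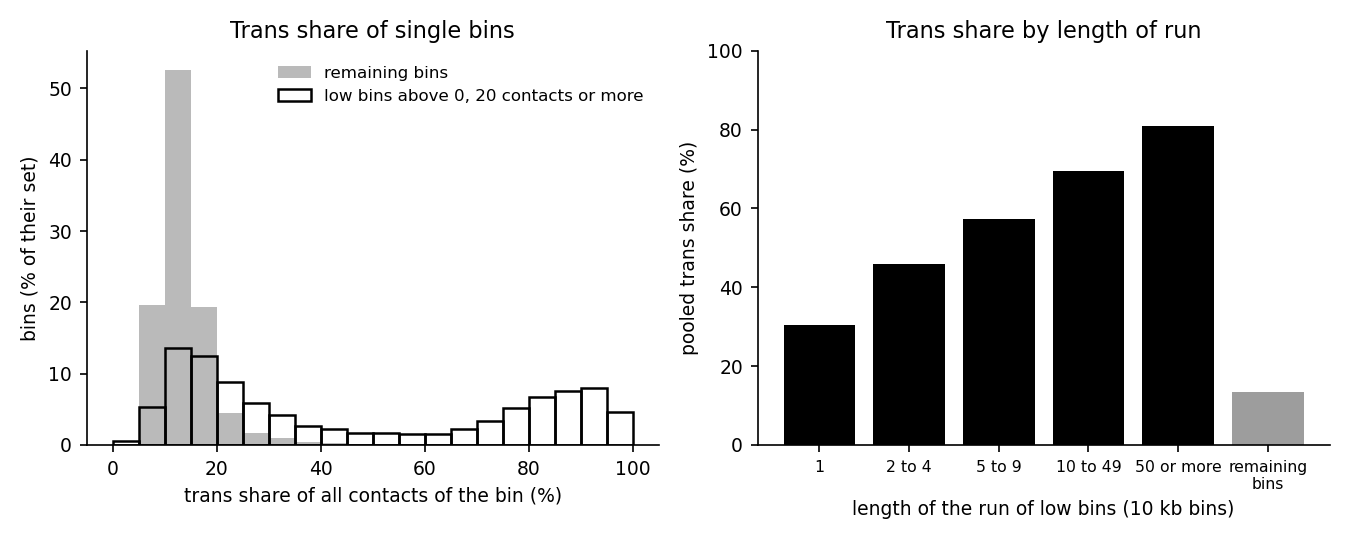
Trans share of low bins. On the left, the percent of bins in each 5-point step of trans share for low bins above 0 with at least 20 contacts (outline, 15066 bins) and for the remaining bins (grey), and on the right, the trans share pooled over low bins by length of run, in bins of 10 kb. The outline has 1 hump near the remaining bins and another near 90%, and the pooled share rises from 30.4% for single bins to 80.8% for the longest class.

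Contacts within a bin were a small part. The same-bin share of the low bins above 0 was 2.60% and 2.70% in Lenti-GFP and 3.23% and 3.08% in Lenti-AS, and it was 9.01% to 9.61% in the remaining bins. The cis contacts that were left reached farther. Between 33.1% and 33.6% of the cis contact ends of low bins were beyond 2 Mb, against 22.4% to 22.9% in the remaining bins, and the neighbouring bin took 14.99% to 15.4% against 18.2% to 18.4%.

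The trans contacts of low bins went to other low bins far more often than those of the genome as a whole. Of them, 16.1% and 17.2% ended in another low bin in Lenti-GFP and 17.2% and 16.5% in Lenti-AS. Low bins held only 3.83% to 4.15% of all trans contact ends. Chromosome X also took a larger part, with 6.14% to 6.26% of the trans contacts of low bins against 3.85% to 4.11% of those of the remaining bins. For chromosome Y these shares were 0.149% to 0.162% and 0.0649% to 0.0718%. All 4 libraries gave the same order for each of these measures. Only the bins of the numbered chromosomes were classed as low, so low bins of X and Y are not in the first share.

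Very long runs were then described on their own. There were 43 runs of at least 50 bins with at least 1000 trans contacts. A median of 29.6% of their trans contacts ended in low bins, with a range from 2.17% to 50.6%, and in 41 of the 43 this was above the share of low bins on the other chromosomes (3.80% to 4.17%). No single 1 Mb window took over 16.8% of a run's trans contacts, and the median for the leading window was 4.03%.

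Contacts were then counted between the 20 longest of these 43 runs, taken as pairs on different chromosomes. An expected count was set from the total trans contacts of both runs. The 174 pairs held 12888 contacts in Lenti-GFP replicate 1, 18142 in Lenti-GFP replicate 2, 11901 in Lenti-AS replicate 1 and 10164 in Lenti-AS replicate 2. This was 44.1, 41.6, 40.6 and 41.3 times the expected count, nearly the same excess in each library. The median pair was at 25.6 times its expected count, 121 pairs were above it and 103 were above 5 times.

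The run on chromosome 14 from 94650001 and the run on chromosome 15 from 21030001, the longest of all, shared 653 and 955 contacts in Lenti-GFP against 662 and 550 in Lenti-AS. The ratios were 76.2, 73.0, 75.9 and 77.0 in the same order. Higher still was the pair of chromosome 2 from 161700001 and chromosome 15 from 106880001, at 141, 133, 131 and 144 times. The runs did not all take part. The run near the end of chromosome 10, from 111130001, was above 5 times its expected count with only 1 of 19 partners, the run on chromosome 8 from 42150001, at 65.6 times. That run on chromosome 8 likewise had only this partner. The runs on chromosome 2 from 233720001 and on chromosome 7 from 4200001 had none, with no ratio above 1.31 and 1.71. In contrast, 15 of the 20 runs were above 5 times with at least 12 of their partners. The heat map of run pairs shows the block of runs that share contacts and the 4 that stand outside it.

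**Figure D3:**
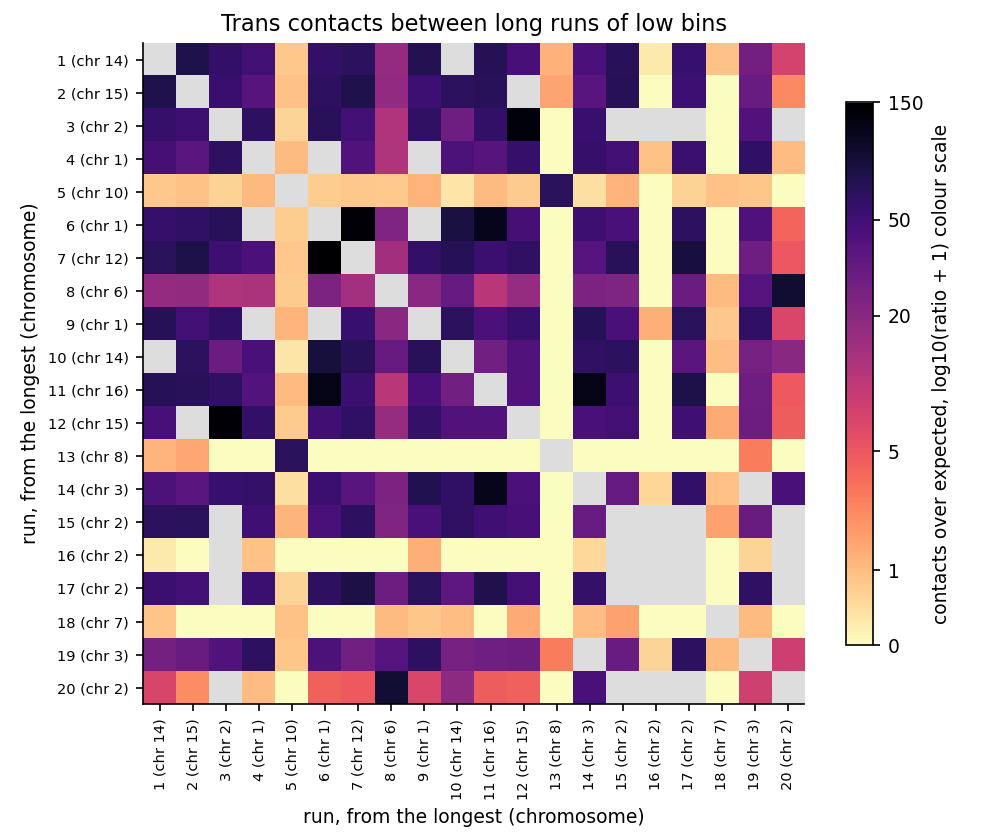
Trans contacts between the 20 longest runs of low bins with at least 1000 trans contacts, summed over the 4 libraries. Each cell is the number of contacts over the expected count on a log10(ratio + 1) colour scale, runs are ordered from the longest with their chromosome in brackets, and grey cells are pairs on 1 chromosome. In 15 of the 20 rows at least 12 cells are above a ratio of 5, every row also has light cells, and runs 5 and 13 are above 5 only with each other.

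The low bins with most trans contacts lay far above the 99th percentile of the remaining bins. They were below the largest count among the remaining bins, which was 42816. The bin starting at 66290001 on chromosome 16 had 2447 and 3416 trans contacts in Lenti-GFP against 2081 and 1844 in Lenti-AS, and 95.5% of its contacts were trans. Per 1000000 contacts of the library this was 25.8, 30.8, 27.8 and 26.2, so the groups overlapped once depth was taken into account. The bins starting at 126910001 on chromosome 8 (8367 in all), 30600001 on chromosome 6 (8120) and 44820001 on chromosome 10 (7978) had trans shares of 95.4%, 92.0% and 98.3%. Per 1000000 contacts of the library the bin on chromosome 8 had 20.5 and 24.5 in Lenti-GFP against 25.1 and 25.9 in Lenti-AS, while the bin on chromosome 6 had 20.6 and 22.1 against 24.96 and 26.2. The groups did not overlap in these bins, but neither was called between groups. The bin on chromosome 10 went the other way, with 26.8 and 22.6 against 20.9 and 19.3. Its unscaled counts were 2541 and 2508 for Lenti-GFP against 1566 and 1363 for Lenti-AS, and it passed the test between groups described below (log2 fold change -0.33, edgeR adjusted p = 0.0286). A single bin at 146540001 on chromosome 4, which is not low, was the partner in 27.5% of its trans contacts for Lenti-GFP and 32.1% for Lenti-AS. The second in order, starting at 33500001 on chromosome 13, had 9286 in all, and its values by group are given below.

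Contacts across long runs were measured next, to see whether the DNA on both sides of a run was as far apart as its length says. The 20 bins before a run were paired with the 20 bins after it, low bins left out, and the count was set against pairs at the same distance on the same chromosome in the same library. Of the 664 long runs, 567 could be measured, and 97 had fewer than 5 usable bins on a side. These flanking bins are not low, so their contacts were not used to choose them, other than by lying above the threshold.

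Pooled over the 567 runs, the contacts were 1.39 times the expected count, and the pooled ratio grew with length. Single runs spread to both sides, with a median of 1.13, 310 runs above 1 and 149 below 0.5. The pooled ratio was 1.28 for runs of 10 to 19 bins, 1.61 for 20 to 49 and 4.99 for 50 or more. In 25 of the 34 measured runs of at least 50 bins the count was above expectation, and in the other 9 it was below 0.5 of it. The run on chromosome 16 from 29970001 to 31120000 had the highest ratio, with 657 and 763 contacts in Lenti-GFP against 515 and 470 in Lenti-AS against 31.9, 37.1, 24.1 and 22.6 expected, which is 20.8 times overall. The runs on chromosome 1 from 95370001 to 96700000 and on chromosome 15 from 21030001 to 23400000 followed, both at 20.2 times. With the expected count scaled by the cis contacts of both bins these 3 runs were at 35.3, 20.2 and 35.1 times in the same order. The flanks of these runs thus touched as often as bins much nearer to each other. For the 25 runs at or above expectation the median length was 680 kb, while the gap at which their count would have been expected had a median of 100 kb, from 0 to 330 kb. The run on chromosome 15 was 2370 kb long and its count was that expected at a gap of 70 kb.

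Other runs had no contact between their flanks. In 19 long runs no contact joined the flanks in any of the 4 libraries, although 41.3 to 2012 were expected. Their lengths went from 10 to 170 bins, with a median of 20. Contacts within a flank were at a median of 0.824 of expectation, from 0.196 to 1.92. The lowest of these was the flank after the run from 146940001 on chromosome 1. The 3 named by position, all on chromosome 1, started at 11900001 (312 expected), 12160001 (796 expected) and 146940001 (880 expected). The first and second of these enclose a stretch of 10 usable bins, which had no contact with the 6 usable bins counted before the first run or the 20 after the second. Of the trans contacts of that stretch, 5.18% went to a window on chromosome 18 from 37000001, and its trans share was 57.8%. The flanks outside the stretch had 12.7% and 12.8%. Shares of flanks are over their contact ends outside the bin. Same-bin contacts were left out, so these shares are not on the scale of the trans shares given for low and remaining bins.

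This form returned in most of the runs with no contact between flanks. In 15 of the 19, a flank on at least 1 side had a trans share of 50% or more, and the highest was 83.1%, before the run that starts at 156960001 on chromosome 2. Counted by flank, 15 of the 38 flanks of the 19 runs reached 50%. Beside the other 548 measured runs, each with a flank on both sides, 41 flanks did. A flank that lies between neighbouring runs is counted with both. The median trans share of a flank was 21.6% beside the 19 runs and 16.5% beside the others. Among the flanks of the 19 runs, the one most given to 1 place lay before the run from 210001 on chromosome 5, where 17.5% of the trans contacts went to the window from 112000001 on chromosome 10, at the end of that chromosome. Beside the other measured runs the highest such share was 38.5%. Flanks did have contacts with the far side beyond the 20 bins. Only 1 of the 38 flanks of the 19 runs had none. Such contacts were a median of 16.2% of the contact ends of a flank outside the bin, against 23.3% beside the other runs. The 8 usable bins between the runs from 3380001 and from 3650001 on chromosome 4 had 9413 contacts with bins beyond the latter. This was 68.0% of their contact ends outside the bin, and 4 contacts went to bins before the run from 3380001. The plot of crossing contacts against length shows both kinds of run.

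**Figure D4:**
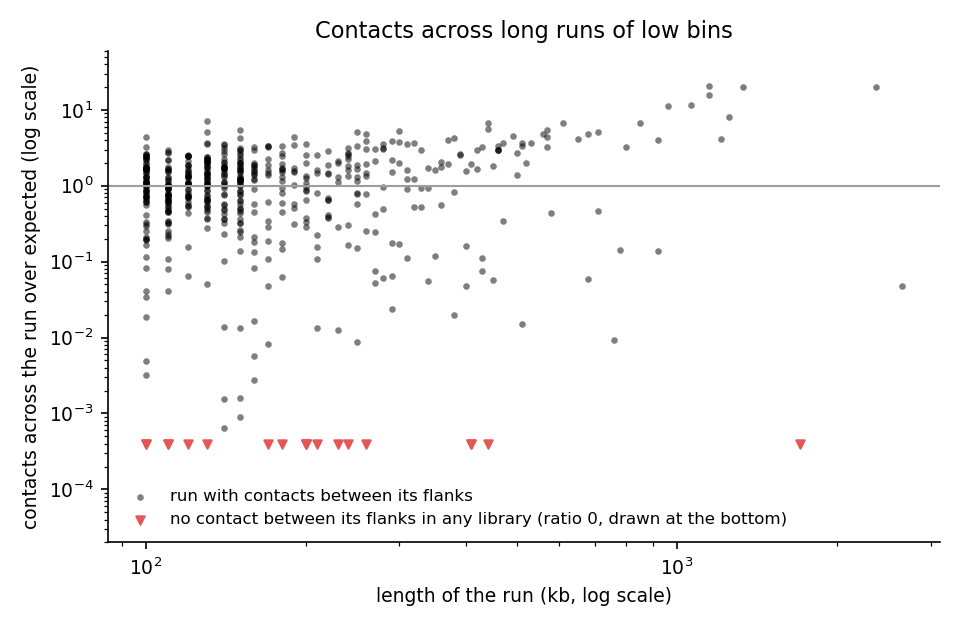
Contacts across 567 long runs of low bins over the count expected for the distance, by length of the run, both on log scales. Each point is 1 run, summed over the 4 libraries, red triangles at the bottom are the 19 runs with no contact between their flanks, and the line marks a ratio of 1. The ratio reaches 20.8 among the longest runs, and triangles occur from 100 to 1700 kb.

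The groups were compared first by measures with 1 number per library. None of these can pass 0.05, since 2 libraries against 2 cannot give an exact p below 0.33. The trans share of low bins was 0.614 percentage points higher in Lenti-AS (57.1% ± 0.264 against 56.5% ± 0.509, SD, n = 2, two-sided exact permutation p = 0.33), and the libraries of the groups did not overlap, though 1 of each lay close together. At 0.1 of the median as the threshold it was lower in Lenti-AS, by 0.163 points in place of higher, so its direction depends on where the line is drawn. In the remaining bins, too, the trans share was higher in both Lenti-AS libraries, at 13.74% and 13.66% against 13.31% and 13.41%. The same-bin share was 0.507 points higher in Lenti-AS (3.16% ± 0.108 against 2.65% ± 0.067, SD, n = 2, exact permutation p = 0.33), again with no overlap between the groups. The same-bin share of the remaining bins was also higher in both Lenti-AS libraries, at 9.61% and 9.34% against 9.01% and 9.07%. Low bins took 0.882% and 0.952% of all contact ends in Lenti-GFP and 0.972% and 0.9497% in Lenti-AS, a difference within the spread between replicates (exact permutation p = 0.667). The share of trans contacts that ended in another low bin differed by 0.148 points (exact permutation p = 1). The pooled ratio of contacts across long runs was 1.39 and 1.39 in Lenti-GFP and 1.40 and 1.39 in Lenti-AS (difference 0.00653, exact permutation p = 0.667).

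The groups were then compared bin by bin with the quasi-likelihood test of edgeR, fitted to all bins of the genome with p adjusted over all of them. For trans contacts, 10569 of the 29263 low bins passed the filter on low counts. Of these, 113 were called at an adjusted p of 0.05 (1.07%), where 0.113% of all bins tested were. In Lenti-AS 82 of them were higher (0.0702% of all bins tested were called that way) and 31 lower (0.0427%). For cis contacts outside the bin 10858 low bins passed the filter, and 401 were called (3.69%), where 8.57% of all bins were. In Lenti-AS 283 were higher (3.54% of all bins tested) and 118 lower (5.02%). For same-bin contacts 1108 passed the filter, and 24 were called (2.17%), where 0.271% of all bins were. In Lenti-AS 23 were higher (0.161% of all bins tested) and 1 was lower (0.11%). Low bins that passed the filter did so on their own counts, so these shares describe the tested low bins and not all low bins. The rule used the sum of the cis contacts over both groups and not their difference, but it also holds the cis counts of low bins under a ceiling, so nothing is read from the share of cis calls. DESeq2 called 25, 19 and 6 low bins in the same order, where it called 51, 215 and 14 of all bins. This was 0.237%, 0.175% and 0.542% of the low bins tested. All bins tested numbered 257848, 258346 and 239048. Without 1 library edgeR called 33 to 240, 129 to 430 and 9 to 15, with the fewest trans calls without Lenti-AS replicate 1 and the most without Lenti-GFP replicate 2.

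The size of the called changes in trans contacts is given as a description. The median log2 fold change of the 82 bins with more trans contacts in Lenti-AS was 1.15, and 24 of them were above 2. In the 99 bins of all chromosomes called in that direction and not classed as low, the median was 0.74, and 3 were above 2. These 99 were not limited to the numbered chromosomes. A bin with few counts needs a larger change to pass, and the part of this in the medians was not tested. Many of the 24 passed the filter on low counts through Lenti-AS alone and could only be called higher. Nothing is therefore read from the split into 82 higher and 31 lower or from the larger increases. Over all low bins tested, called or not, the median trans difference was 0.05, against 0.00 over all bins tested.

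The largest increases in trans contacts were in bins that were nearly bare of them in the control. The 5 bins named here passed the filter on low counts through the Lenti-AS libraries alone, so their being called in this direction rests on those libraries. All 113 trans calls were also made with no filter beyond at least 1 contact. In the bin from 48530001 to 48540000 on chromosome 17, trans contacts numbered 4 and 4 in the Lenti-GFP libraries, against 88 and 130 in Lenti-AS (log2 fold change 5.19, SE 0.302, edgeR adjusted p = 2.9e-36). These went to 215 bins on 20 chromosomes, and no single partner had more than 4, so the gain was spread over the genome. Its cis contacts outside the bin were 2 and 2 against 1 and 5. This bin lies in a run of 10 low bins.

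The bin from 39460001 to 39470000 on chromosome 1 behaved otherwise, since all 3 kinds of its contacts were higher in Lenti-AS. It had 1 and 4 trans contacts in Lenti-GFP against 68 and 52 in Lenti-AS (log2 fold change 4.97, edgeR adjusted p = 3.36e-23). Cis contacts outside the bin were 4 and 7 against 141 and 96, and same-bin contacts 1 and 10 against 39 and 35. In Lenti-AS 28 of its 120 trans contacts, 23.3%, joined it to the low bin at 156860001 on chromosome 2. The bins starting at 39500001 and 39680001 nearby were named for their cis contacts, at 0 and 1 against 15 and 13, and at 2 and 0 against 28 and 24. For these the ratio of summed counts scaled by library totals was 39.6 (exact 95% counting interval 6.55 to 1621) and 36.8 (9.69 to 312). For cis contacts both bins passed the filter on low counts through Lenti-AS alone, as did the bin at 39460001. They were also picked as large called increases, so these ratios are a description only. DESeq2 did not call the bin at 39500001 for cis contacts. In the bin at 39500001 the leading trans partner was again 156860001 on chromosome 2, with 6 of 34 contacts.

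The bins starting at 11750001 on chromosome 9, at 1 and 2 against 36 and 20 trans contacts, at 49300001 on chromosome 2, at 2 and 2 against 40 and 18, and at 27480001 on chromosome 20, at 0 and 2 against 15 and 9, completed the largest increases. The ratio of their summed counts was 26.4 (exact 95% counting interval 8.59 to 132), 20.5 (7.60 to 77.9) and 17.0 (4.22 to 148). DESeq2 did not call the bin at 27480001 for trans contacts.

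Decreases in trans contacts were smaller, and the bins named for them had more trans contacts in the control. The bin from 33730001 to 33740000 on chromosome 13 had 452 and 425 trans contacts in Lenti-GFP against 177 and 165 in Lenti-AS (log2 fold change -0.90, edgeR adjusted p = 2.58e-09). Per 1000000 trans ends this was 18.8 and 15.1 against 9.09 and 9.03. It was the largest called decrease among low bins, and the others named were at 195310001 on chromosome 2 (log2 fold change -0.81), 52060001 on chromosome 3 (-0.78), 181320001 on chromosome 1 (-0.78) and 33470001 on chromosome 13 (-0.74). DESeq2 did not call the bins at 195310001 and 181320001 for trans contacts.

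**Figure D5:**
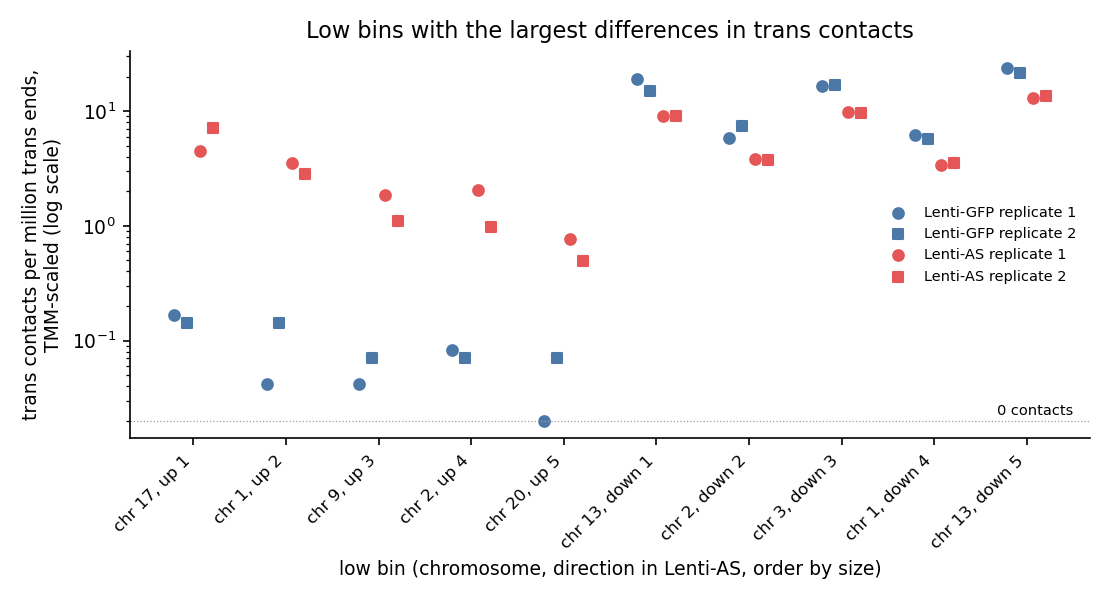
Trans contacts of the 10 low bins with the largest called differences, 5 higher and 5 lower in Lenti-AS, per 1000000 trans contact ends scaled with TMM factors on a log scale. Each point is 1 library, blue for Lenti-GFP and red for Lenti-AS, with circles for replicate 1 and squares for replicate 2, and a library with 0 contacts is drawn on the dotted line. The bins were chosen for these differences, and in each the 2 red points lie on 1 side of both blue points.

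Among cis contacts, the largest increase was in the bin starting at 53260001 on chromosome 6, which had 0 and 0 contacts in Lenti-GFP against 10 and 9 in Lenti-AS. It, too, passed the filter through Lenti-AS alone. With 3 contacts per library as the floor, it was at least 4.45-fold higher in Lenti-AS. It had no trans and no same-bin contact in any library. The bin starting at 98010001 on chromosome 8 had 0 and 1 against 19 and 13, and it also passed the filter through Lenti-AS alone. The largest decreases were at 134890001 on chromosome 5, with 17 and 17 against 3 and 1 (log2 fold change -2.51), at 21120001 on chromosome 12, with 16 and 15 against 2 and 4, at 181830001 on chromosome 1, with 31 and 18 against 8 and 4, at 171070001 on chromosome 5, with 41 and 32 against 10 and 10, and at 20980001 on chromosome 12, with 19 and 28 against 9 and 4. The decreases at 134890001 on chromosome 5, 21120001 on chromosome 12 and 181830001 on chromosome 1 passed the filter through Lenti-GFP alone. The bin at 21120001 was not called with no filter beyond at least 1 contact (edgeR adjusted p = 0.0625). DESeq2 called none of the bins given in this paragraph for cis contacts (DESeq2 adjusted p from 0.127 to 0.705). Only the decrease at 134890001 was below -2 on the log2 scale.

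Of the 24 low bins called for same-bin contacts, 23 were higher in Lenti-AS. Many of them passed the filter through Lenti-AS alone, as did all of the increases named here, so nothing is read from this split. The named increases were at 180910001 on chromosome 1 (1 and 1 against 13 and 22), 156980001 on chromosome 2 (2 and 3 against 32 and 30), 181950001 on chromosome 1 (2 and 0 against 11 and 11), 181180001 on chromosome 1 (2 and 1 against 13 and 9) and 39460001 on chromosome 1, given above. The bin at 156980001 is the only one of these that passed under every alternative. The unscaled trans contacts of the bin at 180910001 were 199 and 176 in Lenti-GFP against 150 and 161 in Lenti-AS. The libraries held 94956821 and 110770015 contacts in Lenti-GFP against 74811640 and 70488877 in Lenti-AS. The lower counts of that bin in Lenti-AS are therefore not read as a decrease. The single decrease, at 30110001 on chromosome 16 (16 and 23 against 5 and 1), lies in the run that had the highest ratio of contacts across it. That bin passed the filter through Lenti-GFP alone.

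The bin from 33500001 to 33510000 on chromosome 13, singled out after its values were seen, had the most trans contacts of the called low bins. It had 1346 and 1885 trans contacts in Lenti-GFP against 3435 and 2620 in Lenti-AS (log2 fold change 1.38, SE 0.076, edgeR adjusted p = 1.27e-38), and 98 and 96 same-bin contacts against 502 and 518 (log2 fold change 2.83, edgeR adjusted p = 1.27e-58). Its strongest partner was a low bin on another chromosome, starting at 22320001 on chromosome 7, which had 519 and 699 trans contacts against 950 and 827 (log2 fold change 1.02, edgeR adjusted p = 1.68e-19). These bins shared 70 and 60 contacts in Lenti-GFP against 256 and 281 in Lenti-AS, in sum over the 4 libraries more than any other pair of low bins on different chromosomes. Per 1000000 contacts of the library this was 0.737 and 0.542 against 3.42 and 3.99. The low bin at 180700001 on chromosome 1 also had more contacts with both in Lenti-AS, with 21 and 28 against 141 and 141 for the bin on chromosome 13 and 6 and 16 against 48 and 51 for that on chromosome 7. Most strong pairs of low bins did not follow this form, such as 170001 on chromosome 1 with 230001 on chromosome 5, which had more contacts than this pair in both Lenti-GFP libraries, at 0.832 and 0.794 per 1000000, and 0.842 and 0.695 in Lenti-AS.

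The 335 low bins called higher in at least 1 of the 3 tests were spread over 237 windows of 1 Mb, with 17.9% of them in the 10 windows that had most. The 137 called lower were in 98 windows, with 31.4% in the leading 10. Some windows are given here, singled out with the calls in view and without a test. The 1 Mb window with most calls in 1 direction was on chromosome 6 from 137000001, where 15 of 21 low bins were lower in Lenti-AS in at least 1 test (5.05% of all bins tested were, and 3.65% were higher). For cis contacts 15 of them were called, with log2 fold changes from -0.82 to -0.52, and for trans contacts 9, from -0.72 to -0.48. All lay between 137430001 and 137640000. Summed over the 21 low bins, cis contacts per 1000000 were 24.8 and 22.8 in Lenti-GFP and 16.9 and 14.04 in Lenti-AS. Trans contacts per 1000000 were 65.5 and 62.8 against 46.4 and 46.7. On chromosome 1 the window from 180000001 had 9 of 96 low bins called higher and 4 called lower, and the window from 181000001 had 7 and 4 of 98, so both directions were found within 2 Mb. The window from 39000001 on chromosome 1 and that from 156000001 on chromosome 2, which share the strong partner bins named above, had 8 of 38 and 9 of 75 called higher. The 3 tests share the same libraries, so calls in more than 1 of them are not independent.

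Run by run, the contacts across long runs were compared with the expected count of each run in each library as offset. Of 516 runs tested, 11 were called at an adjusted p of 0.05 (2.13% of those tested), of which 6 were higher in Lenti-AS (1.16%) and 5 lower (0.969%), and 77 had an unadjusted p below 0.05. The largest increase was across the run from 51260001 to 51360000 on chromosome 9, with ratios of 0.769 and 0.826 in Lenti-GFP and 0.981 and 1.01 in Lenti-AS (log2 fold change 0.32, edgeR adjusted p = 0.0111). The largest decrease was across the run from 128950001 to 129090000 on chromosome 6, with 2.40 and 2.18 against 1.76 and 1.72 (log2 fold change -0.39, edgeR adjusted p = 1e-06). DESeq2 called only the latter, and without Lenti-AS replicate 2 no run was called, with 34 at an unadjusted p below 0.05. With 50 bins on each side 65 runs passed. The longest run called, on chromosome 15 from 106880001 to 107940000, had ratios of 12.7 and 11.8 against 10.8 and 10.0 (log2 fold change -0.23, edgeR adjusted p = 0.0173). The called differences in crossing contacts went from -0.39 to 0.32 on the log2 scale, while the ratios themselves ranged from 0 to 20.8 between runs.

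The balanced matrices, which the authors merged from libraries of a group, hold cis contacts in bins that are at 0 in all 4 raw libraries, 11 such bins for Lenti-GFP and 79 for Lenti-AS. What was merged into them is thus not known here to be the 2 raw libraries of the group. They list 15241 low bins (52.1%) for Lenti-GFP and 15534 (53.1%) for Lenti-AS, and all of the remaining bins. The low bins that are listed hold 5.79% and 5.90% of the balanced total, against 0.882% to 0.972% of the raw contact ends. Each listed bin is brought to the same total by the balancing, so a low bin counts there as much as any other.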

How the data were processed

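Hi-C contacts were analysed in 4 libraries of infected rat Schwann cells, 2 Lenti-GFP and 2 Lenti-AS. For every library the authors ran HiC-Pro and deposited a matrix of raw contact counts between 10 kb bins, which are not normalized. They also deposited 2 balanced matrices, 1 per group, whose signal the authors obtained by merging libraries and iterative correction (ICE). The submitters' processing notes name rn6 (Rnor_6.0), and the HiC-Pro version is not given in the sources used here. Positions are counted from 1. The deposited 100 kb matrices were not used here.

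Each bin's cis contacts outside the bin, trans contacts and same-bin contacts were summed per library. Low bins, their runs and all shares were computed with Python 3.11.15 and numpy 2.4.6. Per-bin counts, and contacts across long runs, were compared with edgeR 4.0.16 (filterByExpr, TMM factors or, for runs, the log expected count as offset, group as the only term) with Benjamini-Hochberg adjustment over all features tested. DESeq2 1.42.0 was an alternative. Values with 1 number per library were compared by a two-sided exact permutation test. Depth ran from 70488877 to 110770015 contacts, and Wilson and exact 95% intervals and the floor of 3 counts cover counting error only. The edgeR tests were also run on counts simulated from the means of the data and the spread that edgeR fitted. Such counts follow the model by construction, so they cannot check it against the real spread between libraries.

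The members and lists were chosen with earlier results of these data known. Named bins are the 5 largest called increases and decreases of each per-bin test, the 5 with most trans contacts and the 3 on each side of the threshold. Named runs are the 5 longest, the longest per chromosome as a range, and the 3 highest and 3 lowest ratios of contacts across with at least 10 expected, ties by position. For runs called by group, the largest in each direction and the longest are given. Alternatives were other thresholds (0.1 and 0.5 of the median), medians and flanks, no filter, no TMM factors, a replicate block and leaving out each library.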

Additional observations from a re-analysis of the deposited data

Results flagged for a closer look

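Of the 10712 bins with 0 cis contacts outside the bin in all 4 raw matrices, 79 had a cis contact outside the bin in the balanced Lenti-AS matrix, against 11 in the balanced Lenti-GFP matrix of the control group. This stood out because the balanced matrices were used for no comparison between the groups and because the raw libraries of both groups are at 0 in these bins. These contacts are in neither raw library of the group, so a balanced matrix may hold reads beyond the 2 raw libraries analysed here, and 79 against 11 cannot be read as a difference between the groups. It was not tested, since each group has 1 balanced matrix.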

How the results depend on the processing

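The number of low bins stayed within 1.5 times its value under every threshold, median and library tried, and so did the number of long runs. The longest run, of 265 bins, had 142 at 0.1 and 459 at 0.5 of the median, and the 7284 runs became 13558 at 0.5. The trans share of low bins differed by -0.163 points at 0.1 of the median. The share of low-bin trans contacts that end in another low bin differed by -0.108 points at 0.1 of the median, and by -0.411 to 0.708 points with 1 library left out, being below 0 without Lenti-GFP replicate 1 and without Lenti-AS replicate 1. The ratio of contacts across long runs differed by -0.0107 for runs of at least 20 bins. The cause of these turns was not tested, and all were at an exact p of 0.33 to 1.

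DESeq2 called 25 low bins for trans contacts, 19 for cis contacts, 6 for same-bin contacts and 1 run for contacts across. With 1 library left out the counts were 33 to 240, 129 to 430, 9 to 15 and 0 to 15, and a lone library was taken to vary like the other group. At 0.1 of the median 174 low bins were called for cis contacts and 12 for same-bin contacts, and at 0.5 there were 1094 and 41, since fewer or more bins were then low. With 50 bins on each side 65 runs were called. The cause of the other changes was not tested.

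The replicate numbers pair the libraries by name only: deviations from the group means correlated by 0.00159 for trans and 0.101 for cis contacts. With the replicate block 116 low bins were called for trans contacts, 497 for cis contacts, 26 for same-bin contacts and 0 of 516 runs for contacts across, where 70 had an unadjusted p below 0.05. For values with 1 number per library the mean difference within replicate numbers equals that of the group means by construction (0.614 points for the trans share, 0.507 for the same-bin share, 0.0437 for the share of contact ends, 0.148 for the share ending in another low bin and 0.00653 for the ratio across long runs). Within numbers 1 and 2 the differences were 1.16 and 0.0672 points for the trans share, 0.630 and 0.383 for the same-bin share, 0.0894 and -0.00198 for contact ends, and 1.05 and -0.751 for the share ending in another low bin, so the last pair of measures turned between the numbers.

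Of the named bins, 7 of 10 for trans contacts, 2 of 10 for cis contacts and 1 of 6 for same-bin contacts passed under every alternative run on them, and 0 of 10 runs did. None turned direction. Of the 29263 low bins, 10569 had enough trans contacts to be tested, 10858 enough cis contacts and 1108 enough same-bin contacts. The rest were left out of the main tests by the filter. With no filter beyond at least 1 contact, 127, 457 and 29 low bins were called in the same order.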
